A study of Mus musculus with 43 samples.

Results

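The expression of serotonin receptor genes was examined in NAcLat→VTA cells, the neurons of the lateral nucleus accumbens that project to the ventral tegmental area. The 10 genes were chosen by name from the 35825 genes listed for each cell: *Htr1a*, *Htr1b*, *Htr1d*, *Htr1f*, *Htr2a*, *Htr2c*, *Htr3a*, *Htr4*, *Htr6* and *Htr7*. Each of the 43 cells was labelled by fluorescent retrobeads injected into the VTA of mice, recorded in a slice, and sequenced as 1 library from the contents drawn into the patch pipette. The 23 REG cells came from mice on standard chow, and the 20 HFD cells from mice with free access to standard chow and to 60% fat chow over a minimum of 4 weeks. The subjects are described as male and female, 6–8 weeks old, and the strain for this experiment was taken to be C57BL/6J, since no transgenic line is named for it. By the labels, batch 1 holds 13 REG and 5 HFD cells and batch 2 holds 10 REG and 15 HFD cells, so diet and batch are partly confounded. The cells came from fewer mice than cells and no source gives the animal of a cell, so all cells of a diet count as 1 sample and no test was run. The intervals given are exact binomial intervals of a share of cells. They treat cells as independent draws, leave out the spread between mice, which is not known, and do not test a difference between diets. Amplified reads are not independent molecules.

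Serotonin reaches the accumbens through axons of the raphe nuclei and acts through receptors that couple to different intracellular signals. Receptors of the Htr1 group couple to Gi/o proteins, which lower cyclic AMP and can open potassium channels. *Htr2a* and *Htr2c* encode receptors that couple to Gq and release calcium from stores, *Htr3a* encodes a subunit of a ligand-gated cation channel, and *Htr4*, *Htr6* and *Htr7* encode receptors that couple to Gs and raise cyclic AMP. Medium spiny neurons, the main cell type of the accumbens, are GABAergic projection neurons, and those that reach the midbrain directly are classically marked by the dopamine receptor gene *Drd1*.

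The cells had a median total of 1426795 estimated counts, between 176961 and 16919555. Counts were divided by the total of each cell to give counts per 1000000 (CPM), and levels of different genes were compared only on the length-scaled TPM values. Markers of medium spiny neurons were present across the cells: *Ppp1r1b* and *Drd1* had counts in 43 of 43 cells, with *Drd1* as low as 0.72 CPM. The 5 markers of D2 medium spiny neurons, among them *Drd2* and *Penk*, summed to a median of 17.9 CPM (REG) and 13.1 CPM (HFD). That sum reached 1400 CPM in HFD cell 16, the cell with the highest *Htr1b*. Markers of serotonergic neurons were nearly absent, with a summed level of 0 CPM in all 20 HFD cells and at most 10.95 CPM in the REG cells. That highest sum was REG cell 19, mostly the transcription factor gene *Fev* at 9.96 CPM, beside the serotonin transporter gene *Slc6a4* at 0.996 CPM, and *Tph2* had counts in 2 REG cells, at most 2.06 CPM. Markers of other cells were not at 0, where 7 microglial genes summed to a median of 50.8 CPM (REG) and 52.3 CPM (HFD) and 5 endothelial genes to 259 and 318 CPM. The endothelial sum was nearly all *Pecam1* (median 262 CPM, 43 of 43 cells), while *Cldn5* and *Cdh5* had counts in 1 cell each. The part of such RNA in the values below was not tested.

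NAcLat→VTA cells carried several serotonin receptor transcripts at low and uneven levels. A cell had counts on 1 to 8 of the 10 genes, with a median of 4 genes, and with each cell thinned to 150000 counts the median was 3 genes. *Htr1b* was found in the most cells, 39 of 43 (90.7%, exact 95% interval 77.9–97.4%), ahead of *Htr2c* in 31, *Htr1d* and *Htr2a* in 26 each, *Htr4* in 25, *Htr1f* in 20 and *Htr6* in 13. *Htr7* had counts in 4 cells, and *Htr1a* and *Htr3a* in 2 cells each.

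**Figure D1:**
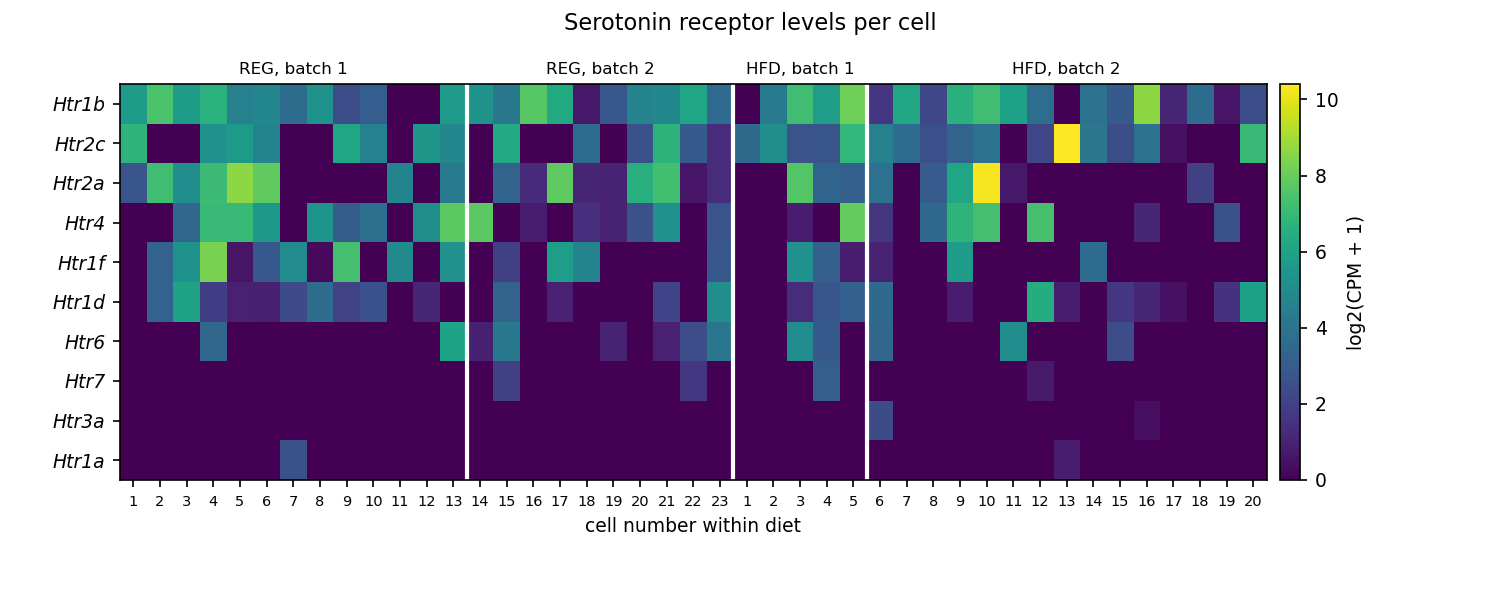
Level of each serotonin receptor gene (rows, ordered by mean TPM) in each of the 43 cells (columns, numbered within diet and split by diet and batch), as log2(CPM + 1). *Htr1b* is above 0 in 39 cells, whereas *Htr7*, *Htr3a* and *Htr1a* are at 0 in nearly every cell, and the 2 brightest squares are *Htr2c* in HFD cell 13 and *Htr2a* in HFD cell 10.

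By mean TPM, the order was *Htr1b* (36.04 ± 51.0, SD, n = 43 cells), *Htr2c* (27.9 ± 67.8), *Htr2a* (19.3 ± 58.2), *Htr4* (12.98 ± 25.3), *Htr1f* (11.2 ± 29.5), *Htr1d* (6.88 ± 16.1) and *Htr6* (4.08 ± 11.2). The means of *Htr7* (0.21), *Htr3a* (0.10) and *Htr1a* (0.05) lay far below. Every SD exceeded its mean, and no neighbours in this order differed by more than the SD of the higher one. The order also depended on the summary used. By median TPM the leading genes were *Htr1b* at 13.4 and *Htr2c* at 4.86, and the medians of the 8 other genes were all below 1. In REG cells *Htr1b* (35.0) was followed by *Htr1f* (17.9), *Htr2a* (16.5) and *Htr2c* (16.1), and in HFD cells *Htr2c* (41.5) stood before *Htr1b* (37.2), with *Htr1f* in the sixth place at 3.55.

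Receptor transcripts were concentrated on 1 gene in many cells. The gene with the highest TPM held a median of 54.8% of the summed receptor TPM of its cell, between 26.0% and 100%. It was *Htr1b* in 12 cells, *Htr2c* in 11, *Htr1d* and *Htr2a* in 5 each, *Htr1f* and *Htr4* in 4 each and *Htr6* in 2. The 4 cells led by *Htr1f* were all REG cells, and the 2 led by *Htr6* were both HFD cells. Above 15 CPM, 7 cells had no serotonin receptor gene (1 REG and 6 HFD), 11 had 1, 13 had 2, and the remaining 12 had 3 to 6.

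The levels of some receptors were correlated over cells, and those of others were not. Across the 43 cells, the highest rank correlations between members were for *Htr1f* with *Htr2a* (Spearman's rho = 0.45) and for *Htr1b* with *Htr2a* (rho = 0.44). Of the 13 cells with *Htr2a* above 15 CPM, 12 also had *Htr1b* above it and 7 had *Htr1f*. Over all 43 cells, 24 had *Htr1b* above 15 CPM and 10 had *Htr1f*. The Gq-coupled pair showed no such relation (rho = 0.03): 5 cells had both *Htr2a* and *Htr2c* above 15 CPM, 8 had *Htr2a* alone and 11 had *Htr2c* alone. These are descriptions, since values of a cell share its library and depth and cells of 1 mouse are not independent.

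Diets were compared by the mean CPM of each, as the log2 of HFD over REG with no pseudocount. The study's expression filter required more than 15 CPM in 5 or more cells and a mean over 4 CPM, and it kept 10802 genes, among them 6 of the 10 receptors: *Htr1b*, *Htr1f*, *Htr2a*, *Htr2c*, *Htr4* and *Htr6*. Of these, 1 had a mean at least 2-fold higher in HFD cells (*Htr2c*), where 9.04% of all filtered genes did so. Another 1 was at least 2-fold lower (*Htr1f*), where 14.3% of all filtered genes were, and the other 4 lay between. The median log2 ratio was 0.043 over the 6 receptors of the filter, beside −0.13 over all filtered genes, and 0.24 over the 9 receptors with counts in both diets, filtered or not.

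Among the Gi/o-coupled receptors, *Htr1f* was lower in HFD cells. In REG cells it ranged from 0 to 320.6 CPM with a median of 2.93 CPM, and in HFD cells from 0 to 51.7 CPM with a median of 0. The groups overlapped widely, and the 2 highest cells, REG cell 4 at 320.6 CPM and REG cell 9 at 162 CPM, were both in batch 1. The log2 ratio was −2.51, and leaving out any 1 cell kept it between −3.34 (without HFD cell 9) and −1.74 (without REG cell 4). Counts were found in 14 of 23 REG cells (60.9%, exact 95% interval 38.5–80.3%) and in 6 of 20 HFD cells (30.0%, 11.9–54.3%), so the intervals overlap. At 150000 counts per cell, the numbers were 9 and 4 cells.

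The level of *Htr1f* also differed between batches of the same diet. In batch 1, the 13 REG cells averaged 49.1 CPM and the 5 HFD cells 9.29 CPM (log2 ratio −2.40). In batch 2, the 10 REG cells averaged 8.78 CPM and the 15 HFD cells 4.29 CPM (log2 ratio −1.03). The REG mean of batch 2 was thus below the HFD mean of batch 1. A further criterion was a ratio at least 2-fold lower, with the sign kept in each batch as a whole. The sign also had to be kept over the cells of both batches together without any 1 cell. It was met by 11.6% of the filtered genes, and *Htr1f* was the 1 receptor of the filter that met it. This criterion left no cell out within a batch. In batch 2, REG cell 17 held 62.0% of the summed *Htr1f* level of REG cells, and HFD cell 9 held 80.4% of that of HFD cells. The other REG cells of batch 2 with counts were at 24.3, 6.15 and 2.93 CPM. Without REG cell 17, the REG mean of batch 2 lies below the HFD mean of 4.29 CPM. The sign in batch 2 thus rested on that 1 cell. *Htr1f* spans chromosome 16, 64924729 to 65105854, on the minus strand (GRCm38).

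*Htr1b*, which encodes a receptor found on axon terminals of striatal projection neurons, did not separate the diets. REG cells ranged from 0 to 207 CPM with a median of 27.0 CPM, and HFD cells from 0 to 400.7 CPM with a median of 13.3 CPM. The HFD cells held both the highest value and the lower median. REG cells averaged 44.3 CPM and HFD cells 66.8 CPM, for a log2 ratio of 0.59 (0.15 without HFD cell 16), whereas the difference of the mean log2(CPM + 1) was −0.28. Batch 1 gave a ratio of 1.27 and batch 2 of 0.20, and 21 of 23 REG cells and 18 of 20 HFD cells had counts.

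The counts of *Htr1b* carry a limit that the other receptors do not. Of its 4672 words of 31 bases, 850 (18.2%) also occur in transcripts of other genes, and 796 are shared with *D430036J16Rik*, an antisense transcript that overlaps it on chromosome 9. In the other 9 receptors at most 8 words were shared with another gene, and no word was shared between receptors. The estimated count of *Htr1b* was within 0.01 of a whole number in 15 of 39 cells, against 31 of 31 for *Htr2c* and 26 of 26 for *Htr2a*. Reads from overlapping strands cannot be told apart where counting does not use strand, so the level of *Htr1b* is uncertain.

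*Htr1d*, a paralogue of *Htr1b* that also encodes a Gi/o-coupled receptor, was found in a similar share of cells (14 of 23 REG and 12 of 20 HFD) but was low in nearly all of them. Its median was 0.94 CPM (REG) and 0.73 CPM (HFD), and 4 cells in all were above 15 CPM, 1 short of the filter. The log2 ratio was 0.43 over all cells, −1.32 in batch 1 and 1.16 in batch 2, and it turned to −0.44 without HFD cell 12. *Htr1a*, the main autoreceptor of serotonergic cell bodies, had 8 counts in all: 7 in REG cell 7 and 1 in HFD cell 13. At 2 of 43 cells (4.65%, exact 95% interval 0.57–15.8%), it was at the edge of detection in both diets.

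**Figure D2:**
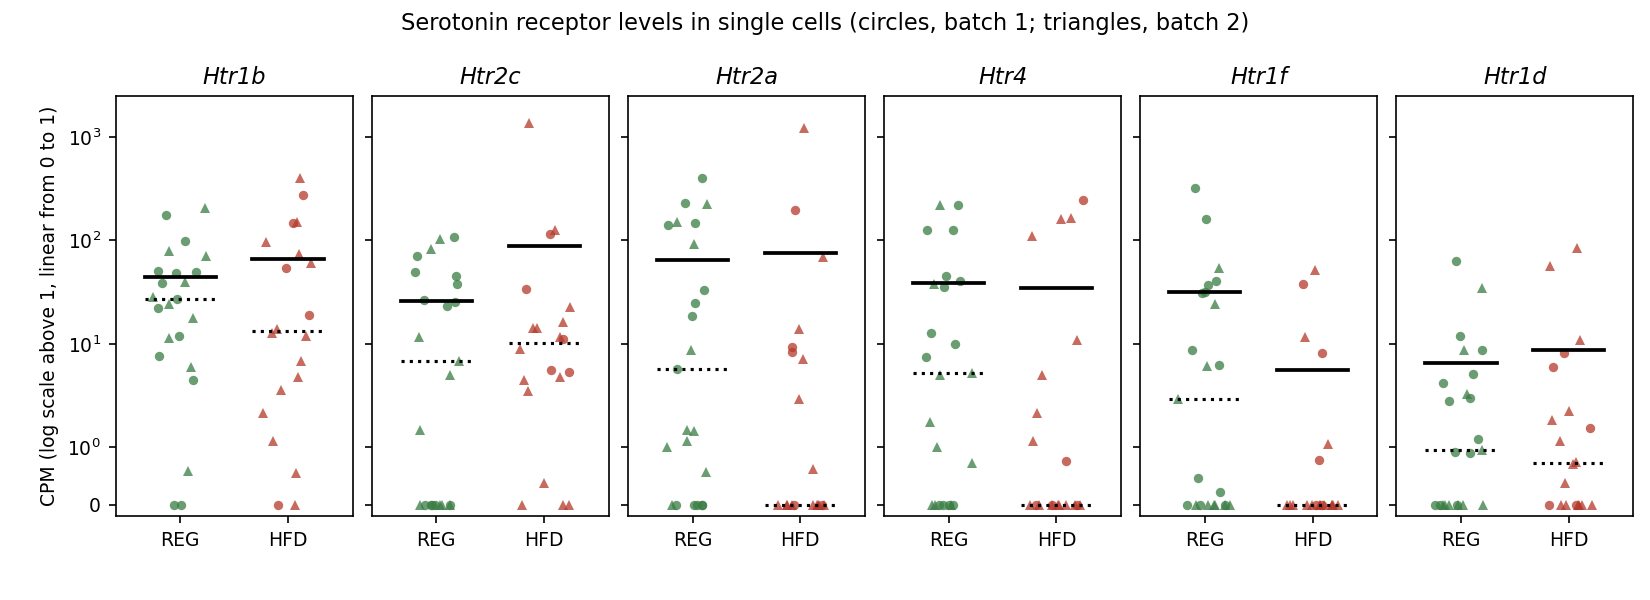
CPM of 6 serotonin receptor genes in single cells by diet, on an axis that is logarithmic above 1 and linear from 0 to 1, with circles for batch 1 and triangles for batch 2; solid bars are means and dotted bars are medians. The HFD mean of *Htr2c* (87.8 CPM) and of *Htr2a* (76.2 CPM) lies far above the medians of 10.1 CPM and 0, and in each gene 1 HFD cell stands far above all others, at 1355 and 1215 CPM.

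*Htr2c*, whose Gq-coupled receptor is a known regulator of food intake, had the largest ratio in favour of HFD cells among the receptors of the filter, and in CPM that ratio rested on 1 cell. REG cells ranged from 0 to 107.4 CPM with a median of 6.75 CPM. HFD cells ranged from 0 to 1355 CPM with a median of 10.1 CPM, and the highest after HFD cell 13 was at 127 CPM. Without that cell the diets covered nearly the same range. Of the *Htr2c* level summed over HFD cells, 77.2% came from HFD cell 13, and of that summed over all 43 cells 57.6%, a share at the 99.4th percentile of all filtered genes, whose median was 16.8%.

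REG cells averaged 25.9 CPM of *Htr2c* and HFD cells 87.8 CPM, for a log2 ratio of 1.76. Without HFD cell 13 the log2 ratio was −0.30, and with the highest cell of each diet left out it was −0.07. On the TPM scale the 43 cells gave a log2 ratio of mean TPM of 1.37. Removal of HFD cell 13 gave 0.59, from 16.1 TPM (REG) and 24.2 TPM (HFD), so the sign did not turn. HFD cell 5, the highest of the HFD cells left, was at 237.4 TPM, and the next was HFD cell 20 at 45.0 TPM. Without HFD cell 5 as well, and with all REG cells kept, the HFD mean falls below the REG mean of 16.1 TPM. The higher HFD mean in TPM thus rested on these 2 cells. In batch 1, which does not hold HFD cell 13, the log2 ratio of mean CPM was 0.22. There the 13 REG cells averaged 29.6 CPM and the 5 HFD cells 34.5 CPM. In batch 2 the log2 ratio of mean CPM was 2.32.

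Detection of *Htr2c* gave a different view from the mean. Counts were found in 17 of 20 HFD cells (85.0%, exact 95% interval 62.1–96.8%) and in 14 of 23 REG cells (60.9%, 38.5–80.3%). At 150000 counts per cell, the numbers were 14 and 12. Above 15 CPM the order turned, with 10 REG cells and 6 HFD cells. A level above 0 and at most 15 CPM was thus found in 11 HFD cells and 4 REG cells, and the intervals of the detection shares overlap.

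HFD cell 13 stood apart from the other 42 cells in markers of medium spiny neurons. It had the lowest level of all 43 cells for *Foxp1* (1.42 CPM against a median of 232 CPM in the others), *Rgs9* (1.42 against 421 CPM) and the dynorphin precursor gene *Pdyn* (2.84 against 686 CPM). Its level of *Tac1* was 8.53 CPM against 1008 CPM, and *Drd1* was at 85.99 CPM, with 12 cells lower. The GABAergic markers were not low: *Gad1* was at 876 CPM, with 2 cells higher, and *Gad2* at 265 CPM. *Ppp1r1b* was at 760 CPM, with 14 cells lower, and *Chrm4* at 7.11 CPM, with 27 cells lower. *Npy*, a marker of 1 class of interneurons, was at 206 CPM, the highest of all cells. Other interneuron markers varied: *Calb2* was at 7.11 CPM with 1 cell higher, *Slc5a7* at 0.71 with 6 and *Sst* at 7.82 with 7. *Pvalb* was at 5.69 CPM with 15 cells higher and *Nos1* at 1.45 with 18, and *Chat* and *Vip* were at 0. HFD cell 13 also held 98.6% of the summed HFD level of *Slc29a4*, a gene for a monoamine transporter. The labels give HFD cell 13 the same cell type as the others, and what sets it apart was not tested.

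*Htr2a*, the other Gq-coupled member, likewise turned on 1 HFD cell. REG cells ranged from 0 to 398 CPM with a median of 5.65 CPM, and HFD cells from 0 to 1215 CPM with a median of 0. The value of 1215 CPM was HFD cell 10, which held 79.7% of the summed level of HFD cells. Below it, HFD cell 3 was at 197 CPM, while 5 REG cells lay between 148 and 398 CPM. REG cells averaged 64.6 CPM and HFD cells 76.2 CPM, which gave a log2 ratio of 0.24, and it was −1.99 without HFD cell 10 and −1.60 without the highest cell of each diet. It was −0.84 in batch 1 and 0.85 in batch 2, where HFD cell 10 belongs.

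Counts of *Htr2a* were found in 17 of 23 REG cells (73.9%, exact 95% interval 51.6–89.8%) and in 9 of 20 HFD cells (45.0%, 23.1–68.5%). Above 15 CPM there were 10 REG cells and 3 HFD cells, and at 150000 counts per cell 13 and 7 cells had counts. In batch 1, 8 of 13 REG and 3 of 5 HFD cells had counts, and in batch 2 9 of 10 REG and 6 of 15 HFD cells. By a count above 0, the shares were thus close in batch 1 and far apart in batch 2. Above 15 CPM the pattern was another, with 7 of 13 REG and 1 of 5 HFD cells in batch 1. In batch 2 there were 3 of 10 REG and 2 of 15 HFD cells above it. At 150000 counts per cell, 5 REG and 4 HFD cells of batch 2 had counts. HFD cell 10 had *Foxp1* at 620 CPM and *Rgs9* at 141 CPM, each at 1.42 CPM in HFD cell 13. The medians of all 43 cells were 231 and 399 CPM, so *Rgs9* was below its median in HFD cell 10. *Ppp1r1b* was at 1519 CPM, against a median of 1042 CPM and 760 CPM in HFD cell 13.

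**Figure D3:**
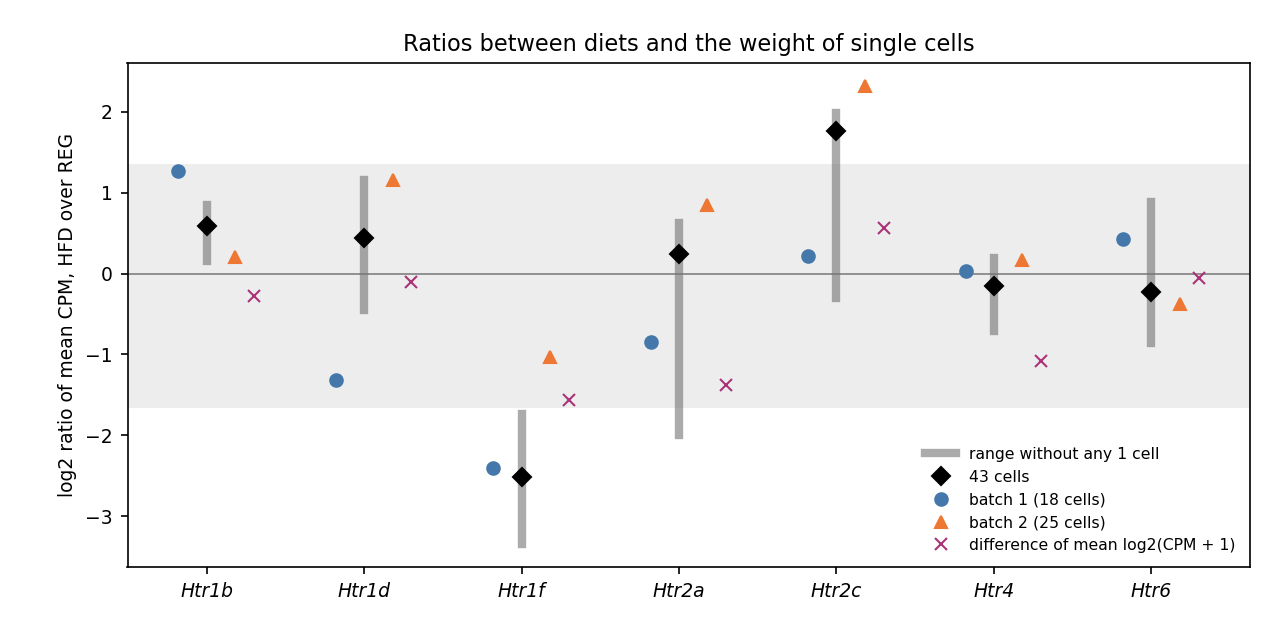
Log2 ratio of mean CPM, HFD over REG, for 7 receptors (black diamonds), the range when any 1 cell is left out (grey bars), the ratio in each batch (circles and triangles) and the difference of the mean log2(CPM + 1) (crosses); the light band spans the 5th to 95th percentile of all 10802 filtered genes, −1.65 to 1.35. *Htr1f* lies below 0 by each of these measures, and the bars of *Htr2c* and *Htr2a* reach from 1.98 to −0.30 and from 0.63 to −1.99.

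*Htr3a*, for the channel-forming subunit, had counts in 0 of 23 REG cells, which allows a share of up to 13.04% by 3 counts over the cells (14.8% by the exact 95% interval), and in 2 of 20 HFD cells with 5 counts in all. Its expression was not detectable in REG cells at this depth. *Htr3b*, which encodes a second subunit that forms channels only together with the first, was found in 17 of 43 cells at a mean of 0.80 TPM, and no cell was above 15 CPM.

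Of the Gs-coupled receptors, *Htr4* was the most abundant. REG cells ranged from 0 to 219.6 CPM with a median of 5.27 CPM, and HFD cells from 0 to 246.6 CPM with a median of 0. The highest values of both diets were alike, and the cells below them differed: counts were found in 16 of 23 REG cells (69.6%, exact 95% interval 47.1–86.8%) and in 9 of 20 HFD cells (45.0%, 23.1–68.5%). The means were 38.96 and 35.0 CPM, a log2 ratio of −0.15 (0.19 without REG cell 13 and −0.70 without HFD cell 5), with 0.04 in batch 1 and 0.16 in batch 2. Over all 43 cells, the share of *Htr4* held by its highest cell, 15.4%, was near the median of all filtered genes. In batch 1, HFD cell 5 held 99.7% of the summed level of HFD cells. In batch 2, REG cell 14 held 80.9% of the summed level of REG cells.

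*Htr6*, a receptor gene known for its expression in the striatum, was found in 8 of 23 REG and 5 of 20 HFD cells, with a highest value of 63.9 CPM in REG cell 13 and 33.1 CPM in HFD cell 11. Its log2 ratio was −0.23 and ran from −0.86 without HFD cell 11 to 0.88 without REG cell 13. *Htr7* had 27 counts in 4 cells, 2 of each diet, and no cell was above 15 CPM.

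**Figure D4:**
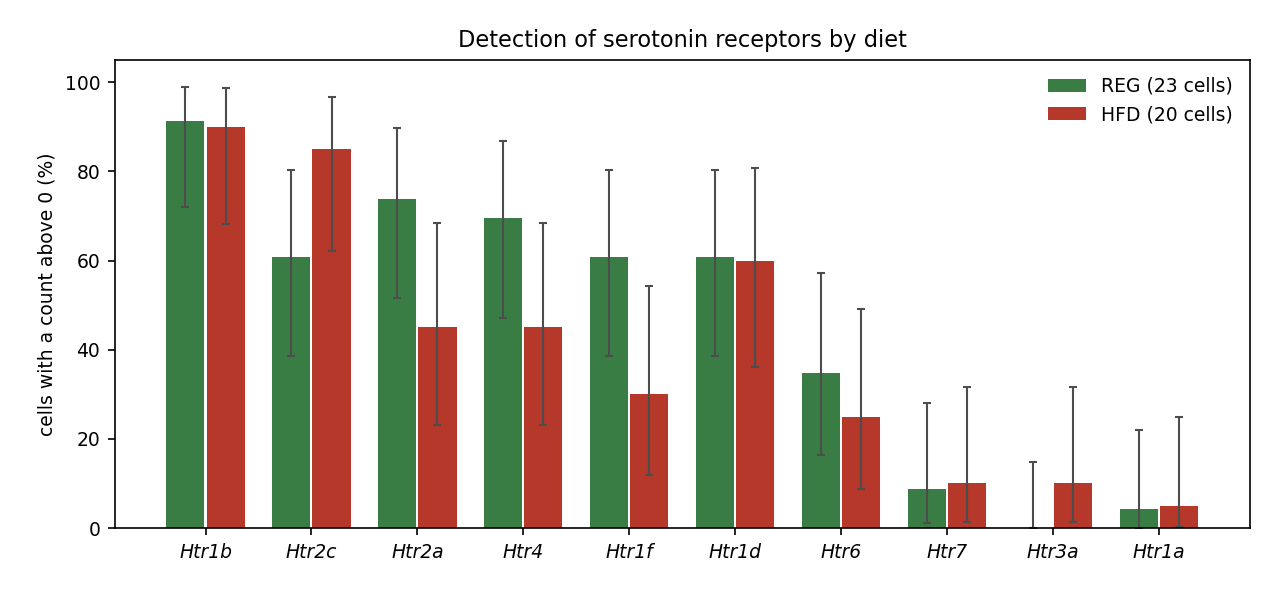
Share of cells with a count above 0 for each receptor in 23 REG cells and 20 HFD cells, with exact (Clopper-Pearson) 95% binomial intervals as error bars. The intervals of the diets overlap for each of the 10 genes, with *Htr1f* at 60.9% and 30.0%, *Htr2a* at 73.9% and 45.0% and *Htr2c* at 60.9% and 85.0%.

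The scale of the values affected *Htr2c* and *Htr1b* more than single-transcript genes. TPM divides by the length of the transcripts to which counts were assigned, so the TPM per CPM of a gene depends on its transcripts. For *Htr2a*, with 1 annotated transcript of 5606 bases, this quotient lay between 0.19 and 0.40 over 26 cells. For *Htr2c*, with 7 annotated transcripts of 648 to 4883 bases, it lay between 0.23 and 3.08 over 31 cells and was above 1 in 10 of them. For *Htr1b*, with transcripts of 1273 and 4724 bases, it was above 1 in 13 of 39 cells. The counts of *Htr2c* and *Htr1b* were thus assigned to transcripts of different length in different cells. In TPM, HFD cell 13 held 30.9% of the summed *Htr2c* level of all cells, against 57.6% in CPM. *Htr2c* spans 146962513 to 147197277 on the plus strand of chromosome X, and *Htr2a* spans 74640840 to 74709494 on the plus strand of chromosome 14 (GRCm38).

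Other serotonin receptors were low or absent. *Htr2b* had no counts in 43 cells, which allows a share of up to 6.98% by 3 counts over the cells (8.22% by the exact 95% interval). *Htr5a*, for a Gi/o-coupled receptor, was found in 21 cells at a mean of 1.11 TPM. *Htr5b* was found in 4 cells, and REG cell 21 held 90.4% of its summed level in REG cells.

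The most abundant signalling genes downstream of the receptors had higher mean TPM than any receptor, but not all of them did. *Gnaq* averaged 37.4 TPM, beside 36.04 TPM for *Htr1b*, and *Plcb3* averaged 0.21 TPM, both named after their values were seen. The potassium channel genes of the Gi/o arm averaged at most 15.3 CPM in either diet. None of the signalling genes in the filter reached a 2-fold difference. Of 8 genes of the Gq arm, 6 passed the filter and all 6 lay within 2-fold, among them *Prkcb*, for a protein kinase C (mean 516 TPM, log2 ratio −0.06), and *Itpr1*, for a calcium release channel (106 TPM, −0.23). Of 9 genes of the Gi/o arm, 8 passed the filter and all 8 lay within 2-fold, with *Gnai2* (243 TPM, 0.52) and *Gnao1* (192 TPM, −0.17), both for G protein α-subunits, at the highest levels. All 6 genes of the Gs arm passed the filter and lay within 2-fold, with *Ppp1r1b*, for a target of protein kinase A (1365 TPM, −0.23), and *Prkacb*, for a catalytic subunit of that kinase (145 TPM, 0.30), at the highest levels. Among the filtered genes of these lists, the ratios farthest from 0 were those of *Gnas*, for the α-subunit of Gs (0.997, with 0.84 in batch 1 and 0.71 in batch 2), *Gnaz* (0.83), *Gnai3* (−0.74, with 0.93 in batch 1 and −2.23 in batch 2) and *Gnal* (−0.69), named after their values were seen. *Gnas* was just under 2-fold, with a range of 0.75 to 1.22 over the removal of each cell in turn. The median log2 ratios of these lists were −0.14, −0.24 and 0.10, beside −0.13 over all filtered genes.

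Genes for receptor partners and RNA editing gave 2 of 7 filtered genes at least 2-fold higher in HFD cells and none at least 2-fold lower, beside 9.04% and 14.3% of all filtered genes. *Arrb2*, which encodes a β-arrestin that binds activated receptors, averaged 5.12 CPM in the REG group and 20.6 CPM in the HFD group (log2 ratio 2.01). Its highest cell was again HFD cell 13, at 198 CPM, and its ratio was 1.14 without that cell, the lowest value with any 1 cell left out, 2.18 in batch 1 and 1.83 in batch 2. *Mpdz*, for a scaffold protein that binds the *Htr2c* product, had a ratio of 1.002 that turned to −0.27 without HFD cell 2. The most abundant members were *Dlg4*, for a postsynaptic scaffold (44.4 TPM, −0.27), and *Adarb1*, for an editing enzyme that acts on *Htr2c* RNA (30.9 TPM, −0.54).

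Of 10 genes for the synthesis, transport and breakdown of serotonin, 2 passed the filter. These were *Maob*, for a monoamine oxidase (8.85 TPM, log2 ratio 0.44), and *Maoa*, for another (log2 ratio 0.99), both under 2-fold. *Maob* turned to −1.20 without HFD cell 18. *Maoa* turned to −0.10 without HFD cell 19 and was −4.28 in batch 1 and 0.69 in batch 2. *Slc18a1*, for a vesicular monoamine transporter, had the highest mean TPM of the list (16.7) and counts in 14 cells, but REG cell 4 held 48.9% of its summed TPM and the mean without that cell was 8.75 TPM.

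The genes whose rank order over cells was most like that of a receptor were found for the 5 receptors with counts in at least 22 cells. *Htr2c* was most like *Btbd10* (Spearman's rho = 0.72, n = 43 cells) and *Crebrf* (0.63). *Htr2a* was most like *Wdr46-ps* (0.64) and *Eml1* (0.61), and *Htr4* was most like *Abat* (0.61) and *Zbtb17* (0.61). *Htr1b* was most like *Aasdhppt* (0.61), and *Htr1d* was most like *Zfp869* (0.60) and *Angptl6* (0.58). No receptor was among these genes. They are the highest of 10802 correlations each, and the rank correlation of the receptors with the total count of a cell was between −0.17 for *Htr2c* and 0.33 for *Htr4*.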

How the data were processed

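The authors prepared SMART-Seq libraries, quantified the reads with kallisto against mouse transcripts of build GRCm38, and excluded cells with few reads or genes. They deposited estimated counts per gene without normalization and, in a second table, TPM computed within each cell. The exclusion is already part of both tables. CPM was computed from the estimated counts over the total of a cell. Where a diet had 0 counts, no ratio was given. Detection means an estimated count above 0, and thinning drew 150000 counts per cell without replacement. Coordinates, transcripts and shared words came from an annotation of the same build. The receptors, the other gene lists and the alternatives were chosen with earlier results of these data known. Genes named are the 10 receptors, 4 other serotonin receptors, in each list the 2 genes of highest mean TPM and those of the filter past 2-fold, and the 2 genes most like a receptor, of which 1 is not reported here. *Npy*, *Slc29a4*, *Maoa* and the markers shown for HFD cells 13 and 10 were named after their values were seen. Alternatives covered TPM, TMM factors of edgeR 4.0.16, size factors of DESeq2 1.42.0, other summaries, each batch, thinning, detection limits and leaving out each cell. Fitted edgeR coefficients were read as values only. The ratio was tested on simulated data. Python 3.11.15, pandas 2.3.3, scipy 1.17.1 and R 4.3.3 were used.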

Additional observations from a re-analysis of the deposited data

How the results depend on the processing

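No paired analysis was possible because cells carry no pairing and no animal number. *Htr1f* stayed lower in HFD cells in all 17 alternatives other than leaving out 1 cell, between −3.37 and −0.63. The value nearest 0 came from cells of at least 1000000 counts, where the difference was under 2-fold. The 2 highest *Htr1f* cells, REG cells 4 and 9, held 708088 and 670920 counts and were not among them. *Htr2c* turned to −0.075 without the highest cell of each diet and to −0.24 without HFD cells 13 and 8 (chosen after the data were seen; in cell 8, *Lars2* took 79.8% of the counts), and with 1 cell left out it ranged from −0.30 to 1.98; in TPM without HFD cell 13 (added likewise) it was 0.59. *Htr4* took the other sign in 11 of 17 alternatives, *Htr6* in 6, *Htr1d* and *Htr2a* in 4 each and *Htr1b* in 2. TMM factors moved the median log2 ratio of all filtered genes by 0.14 and DESeq2 size factors by 0.32.

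The median log2 ratio over the receptors, 0.24, was 0.043 over the receptors of the filter (added likewise), 0.088 in TPM, −0.089 and −0.25 as differences of mean log2(CPM + 1) and log2(CPM + 0.1), 0.32 from summed counts, 0.039 in batch 1, 0.022 as the mean of both batches, 0.50 in cells of at least 1000000 counts, 0.13 after thinning, and −0.15 to 0.38 with 1 cell left out. The number of receptors at least 2-fold apart, 2, was 4 as a difference of mean log2(CPM + 0.1), 1 in cells of at least 1000000 counts, 1 without HFD cells 8 and 13, 1 at 4-fold and 1 to 3 with 1 cell left out (1 without HFD cell 13). The median number of receptors per cell, 4, was 2 at 10 counts, 2 above 15 CPM, 3 after thinning, 4.5 in batch 1 and 3.5 in HFD cells. *Htr1a*, *Htr3a* and *Htr7* had 8, 5 and 27 counts in all, too few to show a difference between diets; the part of depth in this was not tested.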
